A study of Mus musculus with 22 samples.

Results

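Paclitaxel was added to the pair of JQ1 and anti-PD-L1 in mice carrying EMT6 tumours, and RNA of the CD45-negative tumour cells was compared between 3 libraries from mice given all 3 drugs (the 3-drug group) and 2 libraries from mice given JQ1 and anti-PD-L1. These 5 libraries were taken from the 12 of the CD45-negative fraction, and the series holds 22 libraries over both fractions. EMT6 is a mouse mammary carcinoma line, of which 200000 cells were injected on each side into the inguinal fat pads of BALB/c mice 5 to 6 weeks old, and treatment began once tumours could be felt, 5 to 7 days later. Both groups received JQ1 daily by gavage at 50 mg/kg and anti-PD-L1 antibody at 10 mg/kg in 2 injections a week, and the 3-drug group also received paclitaxel at 10 mg/kg in 2 injections a week. The other CD45-negative groups, used here as reference, had JQ1 alone (2 libraries), JQ1 with paclitaxel (3) and vehicle (2), so no group had paclitaxel without JQ1. Genes entered the comparison when they reached at least 1 FPKM (fragments mapped, scaled to gene length and library size) in at least 2 of the 12 libraries, which kept 10780 of 24353 genes. By the codes in the library names, both JQ1 and anti-PD-L1 tumours carried 1 code, 1 tumour from each side, whereas the 3-drug tumours carried 3 codes. The labels do not spell out these codes. Read as animals, the effect of paclitaxel and the difference between animals cannot be told apart. The p-values below measure the spread between tumours, pooled over all 5 CD45-negative groups. The JQ1 and the vehicle groups also had 1 code each, so part of this spread lies within codes.

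Paclitaxel binds tubulin within microtubules and stabilises them, which blocks the mitotic spindle and can lead to cell death. JQ1 displaces BET proteins from acetylated histones and lowers the transcription of many enhancer-driven genes. Anti-PD-L1 keeps PD-L1 from engaging PD-1 on T cells, and PD-L1 itself is among the genes that interferon gamma induces. After bead separation for CD45, which leukocytes carry on their surface, the unbound cells are tumour cells, stromal cells and the leukocytes that escaped the beads.

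Library depth, relative within the fraction, was 1.39 and 1.02 for JQ1 and anti-PD-L1 and 0.795, 1.01 and 0.961 for the 3-drug group; absolute read totals are not known from FPKM. Across genes, log2 levels correlated at 0.983 between the JQ1 and anti-PD-L1 libraries, at 0.974 to 0.981 among the 3-drug libraries and at 0.956 to 0.976 between the groups. The epithelial keratin gene Krt8 stood at 341 to 688 FPKM in the 5 libraries against 3.06 to 24.5 FPKM where the same tumours' CD45-positive cells were measured, and Ptprc, the gene of CD45, at 3.29 to 8.65 against 46.2 to 73.7 FPKM. Summed FPKM of 12 pan-leukocyte genes were 10.4% to 16.3% of those in the matched CD45-positive library. By these genes the fraction was depleted of leukocytes and not free of them, but the share differed between cell types. For T cell genes it was 39.8% and 24.8% with JQ1 and anti-PD-L1, and 12.4% and 92.6% in 3-drug replicates 1 and 2. For cytotoxic genes it was 34.9% and 34.8%, and 16.1% and 79.6%. Neutrophil genes had lower shares, 7.44% and 4.72%, and 7.62% and 3.47%.

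Of the 10780 genes, 108 passed an adjusted p of 0.05 (limma, Benjamini-Hochberg), 1.0% of all tested. Of these, 64 were higher with paclitaxel (0.594%) and 44 lower (0.408%). Snora21, 1810011H11Rik, Chst8, Prss22 and Sectm1a, counted here, reached 1 FPKM only in the group where they are high. They met the expression filter through that group alone, so their calls support nothing about paclitaxel. Ccl24, Gm5483, Mdk and Ppbp also needed the JQ1 and anti-PD-L1 libraries to meet it. Among called genes with a mean log2 level of at least 2, the higher ones were led by Chac1, an enzyme that degrades glutathione under amino acid stress, the MHC class II chaperone gene Cd74 and Cyp1b1, a cytochrome P450. The lower ones were led by the chemokine gene Pf4, the globin gene Hbb-b1, the neutrophil gene S100a9, and F13a1, a coagulation factor gene. None of the 108 overlapped between the 3 and the 2 libraries, but without any test of spread 1583 genes (14.7%) lay higher in all 3 than in both and 2106 (19.5%) lower. The median log2 difference of all genes was -0.05. Here and below a log2 difference is the mean of log2(FPKM + 1) in the 3-drug group minus that with JQ1 and anti-PD-L1, ± its standard error, and fold values are ratios of mean FPKM.

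**Figure D1:**
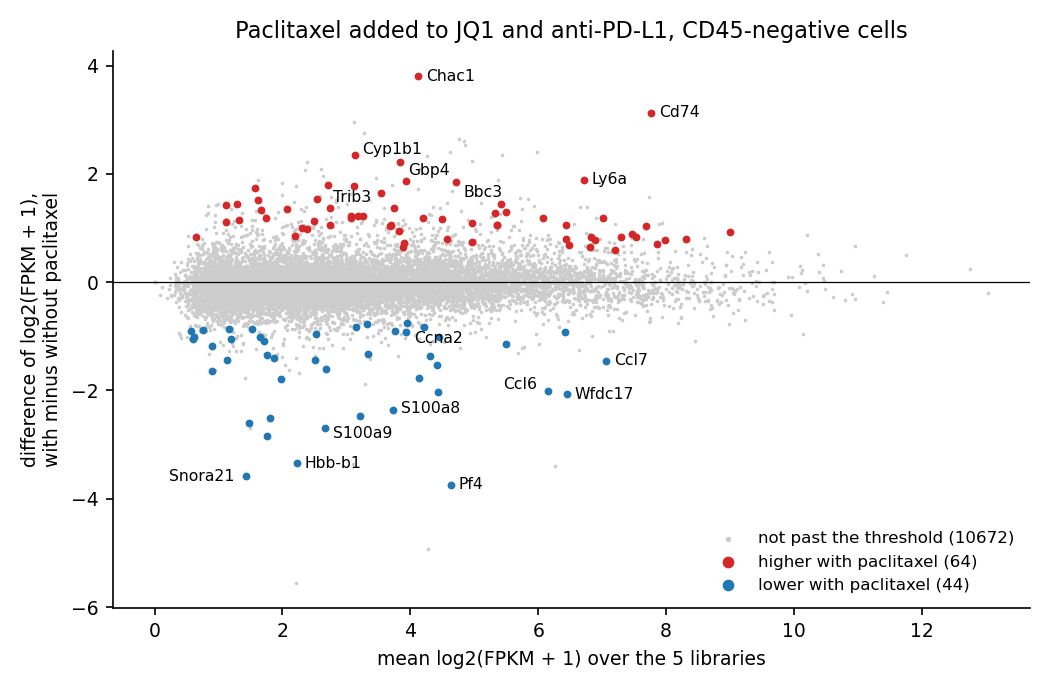
Difference of log2(FPKM + 1) with minus without paclitaxel on top of JQ1 and anti-PD-L1, against the mean level over the 5 libraries, for 10780 genes of the CD45-negative fraction. Red points are the 64 genes that rose and blue points the 44 that fell at an adjusted p under 0.05; Chac1 at 3.81 and Pf4 at -3.74 are the extremes among the labelled genes, and a few grey genes lie further out without passing the test.

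How many genes passed rested on single tumours. Without 3-drug replicate 2 only 4 genes passed, all lower (Pf4, S100a8, S100a9 and Snora21), and without JQ1 and anti-PD-L1 replicate 1 only the small nucleolar RNA gene Snora21 did. The count was 33 without 3-drug replicate 1, 103 without replicate 3 and 34 without JQ1 and anti-PD-L1 replicate 2. Libraries of the other groups enter only through the shared estimate of spread, and leaving 1 out gave 25 for either JQ1 library, 28, 138 and 235 for the JQ1 and paclitaxel libraries 1, 2 and 3, and 96 and 97 for the vehicle libraries. With 1 value per mouse code, Snora21 alone passed. All 108 differences kept their sign in every alternative fit that tested the gene, of 23 in all. As none of the 108 overlapped between the groups, most of these fits could not reverse a sign. Only fits that rescaled the libraries or used depth as a covariate could, so the kept signs lend the calls little support.

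Genes of the integrated stress response were among the strongest that rose. This and the other gene lists below were chosen with earlier results of these data known. Their counts beside the share of all genes are therefore a description and no test. Of 26 tested genes in a list of ATF4 targets and unfolded protein genes, 4 rose (Chac1, Trib3, Sesn2 and Herpud1) and none fell, against 0.594% and 0.408% of all genes; 22 of the 26 differences were above 0 and the list median was 0.29. ATF4 is the transcription factor that this response switches on at its shared step, when amino acids run short or unfolded proteins collect in the endoplasmic reticulum. Chac1 stood at 1.80 and 3.59 FPKM with JQ1 and anti-PD-L1 and at 46.7, 63.7 and 39.9 FPKM in the 3-drug libraries. All 3 lay far above both, a ratio of means of 18.6 and a log2 difference of 3.81 ± 0.65 (limma, adjusted p = 0.0309). Of the other 7 libraries the JQ1 and paclitaxel replicate 3 came closest, at 26.6 FPKM, and the rest were between 1.85 and 7.20 FPKM.

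Trib3, a pseudokinase gene that ATF4 induces and that feeds back on it, was at 3.91 and 6.00 FPKM against 16.5, 17.7 and 18.3 FPKM. The 3-drug libraries were close to each other and above all 9 others, with a log2 difference of 1.66 ± 0.30 (adjusted p = 0.0377). Herpud1, an endoplasmic reticulum protein gene of protein degradation, was at 32.4 and 49.5 against 97.6, 89.0 and 92.5 FPKM (1.19 ± 0.21, adjusted p = 0.0345). Sesn2, a sestrin gene that restrains mTORC1 and belongs both to the ATF4 and to the p53 targets, was at 30.6 and 16.3 against 54.7, 63.2 and 70.5 FPKM (1.44 ± 0.26, adjusted p = 0.0377). In both of these genes the groups were apart, and the 2 tumours without paclitaxel differed from each other more than the 3 with it on the log2 scale.

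The transcription factor genes themselves and the chaperones of the list did not pass the test. Atf4 was at 168 and 144 against 207, 202 and 266 FPKM (0.52 ± 0.25, adjusted p = 0.345), and Ddit3, which encodes CHOP, at 22.7 and 12.8 against 27.0, 22.6 and 22.9 FPKM, where the groups overlapped. Hspa5, the main chaperone of the endoplasmic reticulum, was at 849 and 592 against 643, 538 and 570 FPKM (-0.28 ± 0.18, adjusted p = 0.471). The enzymes of amino acid synthesis and one-carbon metabolism in the list did not pass either, among them Asns with a difference of 0.32 ± 0.23, Psat1 with 0.28 ± 0.20, Mthfd2 with 0.22 ± 0.22 and Shmt2 with 0.16 ± 0.17. No gene of the list rose when replicate 1 or 2 of the 3-drug group or replicate 1 of JQ1 and anti-PD-L1 was left out; leaving out the other JQ1 and anti-PD-L1 library gave 1 gene of the list that rose, and leaving out 3-drug replicate 3 gave 3.

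To show what these genes carry near their starts, RefSeq promoters of build GRCm38.p6 (250 bases before to 50 after each start) were searched on both strands for TGATGNAA, the core of the C/EBP-ATF response element through which ATF4 binds. Of all 27025 genes with a promoter 1219 (4.51%) held it. Of the 24 list genes with a promoter 8 did, among them Chac1, Trib3 and Herpud1 but not Sesn2. The stretches around the match are given on the gene's strand, 5′ to 3′, with the match in capitals. In Chac1 (chr2:119351004-119351103) the match begins 193 bases before the start and in Herpud1 (chr8:94386272-94386371) 112 bases before it, whereas in Trib3 (minus strand, chr2:152344028-152344057) it begins at base 15 after it.
Chac1: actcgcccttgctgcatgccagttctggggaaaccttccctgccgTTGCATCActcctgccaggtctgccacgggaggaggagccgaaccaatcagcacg
Herpud1: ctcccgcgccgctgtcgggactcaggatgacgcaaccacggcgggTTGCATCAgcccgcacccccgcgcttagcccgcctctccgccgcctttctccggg
Trib3: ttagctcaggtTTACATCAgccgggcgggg
The match lies on the opposite strand in all 3, and it describes these letters only: Asns and Pck2 hold it too and did not pass the test.

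**Figure D2:**
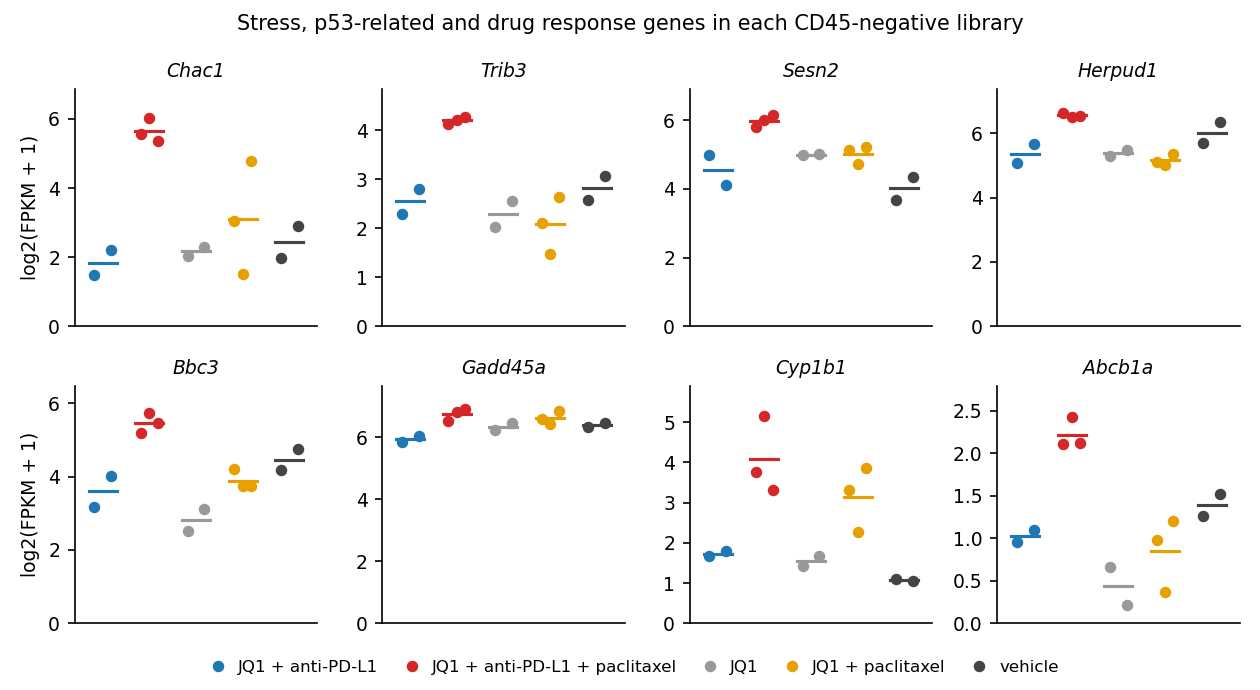
Each point is 1 CD45-negative library, as log2(FPKM + 1) on the vertical axis, and each bar the mean of its group, for 8 stress and drug response genes. In all 8 genes the 3 red points of the 3-drug group lie above both blue points of JQ1 and anti-PD-L1; for Chac1 the 3-drug libraries are at 39.9 to 63.7 FPKM.

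Among 23 tested p53 targets, 2 rose, Bbc3 and Sesn2 (0.594% of all genes), and 10 lay higher in all 3 libraries than in both (14.7% of all genes), with a list median of 0.23. Bbc3 encodes PUMA, a BH3-only protein that starts mitochondrial apoptosis, and stood at 8.01 and 15.3 FPKM against 35.2, 51.6 and 43.3 FPKM. The groups were apart by more than the range of either, a ratio of means of 3.73 and a log2 difference of 1.86 ± 0.28 (limma, adjusted p = 0.0195). Of 14 tested Bcl2 family genes only Bbc3 passed, where 0.594% of all genes rose. The ubiquitin ligase gene Mdm2, which p53 induces and which degrades p53, was at 21.8 and 40.7 against 76.9, 77.5 and 77.5 FPKM and just missed the threshold (1.34 ± 0.31, adjusted p = 0.0585). Cdkn1a, the cell cycle inhibitor p21, was at 124 and 91.6 against 162, 201 and 168 FPKM, apart but not past the test (0.72 ± 0.22, adjusted p = 0.15). Gadd45a, a stress sensor that p53 and ATF4 both induce, rose from 57.1 and 64.3 to 91.8, 111 and 119 FPKM (0.81 ± 0.16, adjusted p = 0.0425).

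The second group that rose was of genes that interferon gamma induces and that present antigen. Of 19 tested interferon gamma genes 3 rose, against 0.594% of all genes. These were the guanylate-binding protein genes Gbp2, Gbp3 and Gbp4, which encode GTPases of defence inside the cell. All 19 differences were above 0, 15 were without overlap against 14.7% of all genes, and the median was 1.28. Gbp2 was at 86.6 and 70.2 against 166, 224 and 153 FPKM (1.19 ± 0.23, adjusted p = 0.0399). Gbp3 was at 25.6 and 19.96 against 56.0, 77.8 and 40.6 FPKM (1.28 ± 0.26, adjusted p = 0.0425), and Gbp4 at 6.62 and 3.26 against 23.4, 55.5 and 12.4 FPKM (2.22 ± 0.47, adjusted p = 0.0466). In all 3 genes replicate 2 of the 3-drug group was highest and replicate 3 lowest. Others with large differences missed the threshold, among them the GTPase gene Igtp (1.92 ± 0.49, adjusted p = 0.0775).

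Cd274, the gene of PD-L1, was at 2.20 and 2.88 FPKM with JQ1 and anti-PD-L1 and at 9.23, 22.1 and 3.93 FPKM in the 3-drug libraries. All 3 lay above both, replicate 2 far above the others (a log2 difference of 1.58 ± 0.49, adjusted p = 0.158). Outside the list, Il18bp, which encodes a decoy for interleukin 18, rose from 4.92 and 4.07 to 12.1, 15.5 and 8.63 FPKM (1.22 ± 0.24, adjusted p = 0.0413). Ly6a, the stem cell antigen Sca-1 gene, rose from 47.8 and 46.0 to 222, 256 and 95.9 FPKM (1.89 ± 0.39, adjusted p = 0.0439), and its 2 vehicle libraries stood at 136 and 98.2 FPKM, also above JQ1 and anti-PD-L1. In the list of the type I interferon response 1 of 25 rose, the tetherin gene Bst2 (0.78 ± 0.15, limma, adjusted p = 0.0413), against 0.594% of all genes. Bst2 was at 84.5 and 85.15 against 160, 130.5 and 148.6 FPKM, and vehicle stood near the latter at 156 and 138 FPKM. In this list 14 of 25 were below 0, and the median was -0.06, or 0.0058 with quantile normalization.

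The stretches before the starts of Gbp2 and Gbp3 are shown because interferon-induced factors bind there in many genes. GAAANNGAA, the core of the interferon-stimulated response element, was searched on both strands as above. It was held by 2638 of 27025 genes with a promoter (9.76%) and by 13 of the 15 list genes with a promoter. It begins 58 bases before the start of Gbp2 (chr3:142620560-142620659) and, in 2 overlapping copies, 44 and 38 bases before that of Gbp3 (chr3:142559955-142560043); a second promoter listed for Gbp3 holds none.
Gbp2: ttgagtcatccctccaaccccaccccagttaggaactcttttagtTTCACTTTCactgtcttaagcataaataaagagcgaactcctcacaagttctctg
Gbp3: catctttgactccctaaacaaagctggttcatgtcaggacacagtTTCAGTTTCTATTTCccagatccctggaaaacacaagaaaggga
Both matches lie on the opposite strand. The list genes Cxcl10 and Socs1 hold the motif as well and differed little, by 0.18 ± 0.27 and 0.15 ± 0.26.

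Antigen presentation was the next group with rises. Of 18 MHC class I presentation genes 5 rose, H2-L, H2-T23, H2-Q6, H2-Q4 and the tapasin gene Tapbp, 17 were above 0 and 13 were without overlap, with a median of 0.56; of all genes 0.594% rose and 14.7% were higher without overlap. H2-T23, a non-classical class I gene, was at 125 and 132 against 218, 284 and 200 FPKM (0.84 ± 0.15, limma, adjusted p = 0.0382). Tapbp, which loads peptides onto class I, was at 234 and 222 against 342, 457 and 394 FPKM (0.79 ± 0.15, limma, adjusted p = 0.0388). The vehicle libraries stood at 222 and 224 FPKM for H2-T23, within the 3-drug range, and at 279 and 304 FPKM for Tapbp, below it. Tap1, a subunit of the peptide transporter, missed the threshold at 25.6 and 25.6 against 38.2, 56.1 and 40.4 FPKM (0.77 ± 0.17, adjusted p = 0.0516). B2m, the light chain shared by all class I molecules, was at 2133 and 2520 against 2919, 2429 and 2245 FPKM, and the groups overlapped. The count was 7 with median-of-ratios scaling and 8 with quantile normalization. The H2-Q, H2-L and H2-T genes are near-identical copies whose shared reads may be split between them, so their values are not independent; H2-Q1, H2-Q5, H2-T3 and Gm11127, outside the list, rose as well by 0.60 to 0.69.

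All 7 tested MHC class II presentation genes lay higher in the 3 libraries than in both, with a median of 2.65, and 1 of them passed, against 14.7% and 0.594% of all genes. Cd74, the invariant chain that guides class II molecules, was at 76.4 and 44.3 FPKM against 648, 1158 and 186 FPKM, a ratio of means of 11 (3.13 ± 0.61, adjusted p = 0.0399). The class II chain gene H2-Aa was at 19.6 and 11.8 against 103, 233 and 22.4 FPKM (2.36 ± 0.71, adjusted p = 0.146), and H2-Eb1 at 10.5 and 6.15 against 73.9, 147 and 15.4 FPKM (2.65 ± 0.66, adjusted p = 0.0707). Replicate 3 of the 3-drug group lay near the other groups in these 2 genes, and JQ1 and paclitaxel replicate 3 stood above it at 35.6 and 18.5 FPKM. Without 3-drug replicate 3 all 7 class II genes and 10 of the 19 interferon gamma genes passed. Without 3-drug replicate 2, or without either JQ1 and anti-PD-L1 library, no gene of the 3 lists passed.

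Class II genes are also those of professional antigen-presenting cells. In bulk RNA, fewer or more cells of a type and less or more RNA per cell cannot be told apart. The 12 pan-leukocyte genes summed to 412 and 280.0 FPKM without paclitaxel and to 374, 363 and 223 FPKM with it, and Ptprc was at 8.05 and 4.75 against 6.53, 8.65 and 3.29 FPKM, with overlap in both. Of 6 tested dendritic cell markers 5 had differences above 0, and none passed. All 13 listed genes summed to 113 and 107 FPKM against 81.0, 109 and 64.5 FPKM, with overlap. This sum is led by Fscn1, an actin bundling gene that tumour cells express too and that lay lower at 105 and 100.4 against 45.3, 42.4 and 51.4 FPKM (-1.14, adjusted p = 0.0569). Without it and without the class II gene H2-DMb2, a choice made after seeing the values, the other 11 genes summed to 4.89 and 4.94 FPKM against 8.50, 21.4 and 7.06 FPKM, all 3 above both and replicate 2 highest. Ccr7, a homing receptor of mature dendritic cells and T cells, was at 0.935 and 1.64 against 2.75, 14.2 and 1.40 FPKM. Summed markers of T cells, B cells and cytotoxic cells were highest in 3-drug replicate 2. Single genes differed: of 5 tested T cell genes 2 had differences below 0. Tcf7 was at 3.855 and 3.869 against 3.431, 2.959 and 2.416 FPKM. The 19 T cell genes summed to 10.9 and 7.25 against 11.3, 29.5 and 5.78 FPKM, the 10 B and plasma cell genes to 5.32 and 1.14 against 1.75, 18.8 and 0.277 FPKM, and the 16 cytotoxic genes to 12.7 and 15.2 against 17.2, 31.9 and 20.1 FPKM. None of the T cell, B cell or dendritic cell markers was at 0 in all 5 libraries and 1 of the 16 cytotoxic genes was. Replicate 2 was also the highest of the 3 in 40 of the 64 genes that rose, against 29.8% of all genes, and the part of any of these cells in the rises was not tested.

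**Figure D3:**
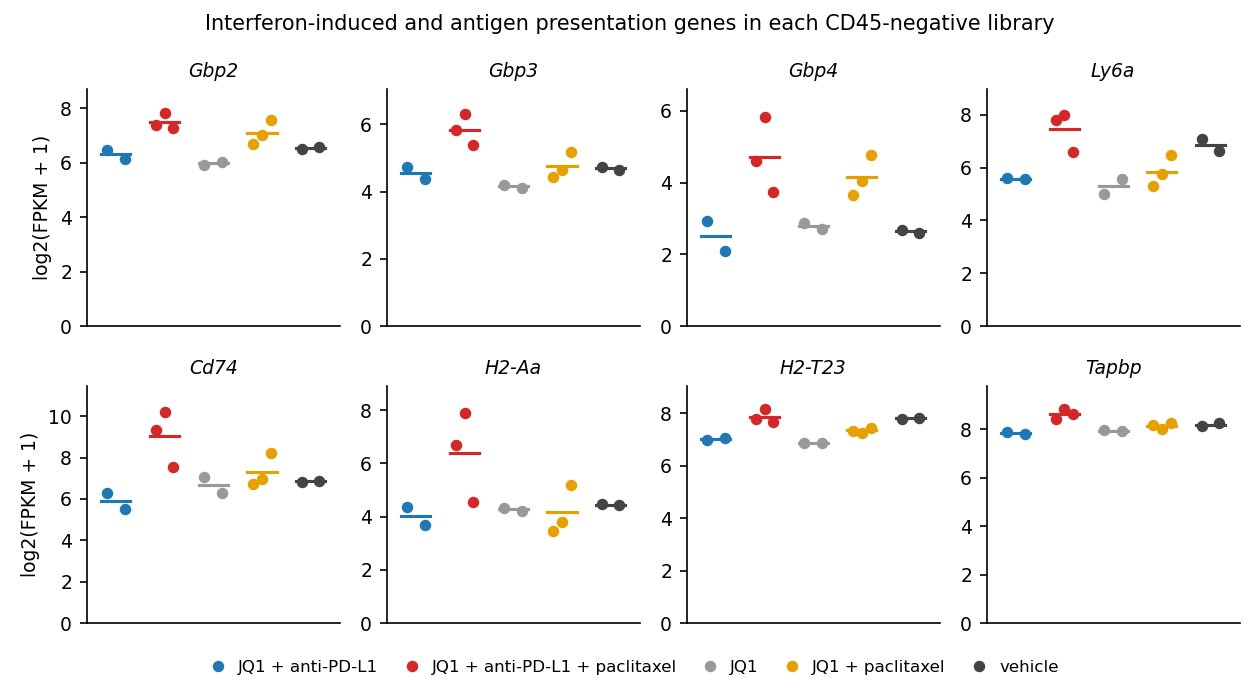
Each point is 1 CD45-negative library, as log2(FPKM + 1), and each bar a group mean, for 4 interferon-induced genes, 2 MHC class II genes and 2 class I genes. The 3-drug points (red) lie above the JQ1 and anti-PD-L1 points (blue) throughout and spread widely for Cd74, from 186 to 1158 FPKM, and H2-Aa, from 22.4 to 233 FPKM.

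Some genes of foreign compounds and redox balance, taken from several lists or from none, also rose. Cyp1b1, an oxidase gene, was the 1 of 5 tested aryl hydrocarbon receptor genes to pass, where 0.594% of all genes rose. It was at 2.16 and 2.45 against 12.5, 34.6 and 8.91 FPKM (2.35 ± 0.48, limma, adjusted p = 0.0425). Abcb1a, one of the 2 mouse genes of P-glycoprotein, the pump that carries paclitaxel out of cells, was at 0.939 and 1.14 against 3.33, 4.38 and 3.34 FPKM, a ratio of means of 3.55 (1.19 ± 0.25, adjusted p = 0.0443). In all 7 libraries of the other groups Abcb1a was at or under 1.88 FPKM, so the 3-drug libraries were the highest of all 12. Abcb1a was the 1 gene of 23 microtubule regulators and exporters to pass, where 0.594% of all genes rose. Aldh3a1, an aldehyde dehydrogenase gene, rose from 1.48 and 2.89 to 10.8, 14.2 and 6.02 FPKM (1.80 ± 0.34, adjusted p = 0.0388), and Ephx1, an epoxide hydrolase gene, from 23.5 and 27.2 to 58.7, 57.2 and 45.9 FPKM (1.05 ± 0.16, adjusted p = 0.0195). Sqstm1, the autophagy receptor p62 and a target of NRF2, rose from 338 and 360 to 673, 679 and 638 FPKM (0.93 ± 0.18, limma, adjusted p = 0.0399). Its vehicle libraries stood near the 3-drug level, at 630 and 712 FPKM. In the list of NRF2 and redox genes 12 of 15 were above 0 and none passed (2 with median-of-ratios scaling and 1 with quantile normalization); the nearest were the glutathione transferase gene Gstm1 (1.08 ± 0.24, adjusted p = 0.0516) and Gclc (0.86 ± 0.20, adjusted p = 0.0589), the catalytic subunit for glutathione synthesis.

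Tubulins, the targets of paclitaxel, did not pass in any of 15 genes, with a median of -0.12; either other scaling called 1 higher, and without 3-drug replicate 2 the median was 0.05. Tubb5, a major beta-tubulin, was at 214 and 231 against 194, 133 and 220 FPKM, and Tuba1b at 706 and 584 against 558, 392 and 641 FPKM, with overlapping groups in both. Tubb2a (0.80 ± 0.20, adjusted p = 0.0714) and Tubb2b (0.69 ± 0.20, adjusted p = 0.124) lay higher without overlap. In the comparison of paclitaxel with JQ1 alone as base, 12 of the 15 tubulins were above 0, with a median of 0.49.

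Many of the genes that fell are known from myeloid cells or blood. Of 10 tested genes of alternatively activated macrophages, the resident or repair type, 5 fell, against 0.408% of all genes: Pf4, Ccl6, Mrc1, Ccl24 and Folr2. Ccl24 met the expression filter only with the JQ1 and anti-PD-L1 libraries. As the list was chosen with earlier results of these data known, its counts are no test. In the list 9 genes were lower without overlap, against 19.5% of all genes, and the median was -1.47. Pf4, a chemokine gene of platelets and resident macrophages, was at 166 and 83.0 FPKM with JQ1 and anti-PD-L1 and at 8.82, 4.64 and 11.4 FPKM in the 3-drug libraries. The 2 ranges are far apart, a ratio of means of 15 between the groups (-3.74 ± 0.41, limma, adjusted p = 0.00284). Mrc1, the mannose receptor CD206, was at 7.57 and 7.05 against 1.64, 1.197 and 1.38 FPKM (-1.79 ± 0.26, adjusted p = 0.0192). Ccl6, a monocyte-attracting chemokine gene, was at 183 and 146 against 53.2, 40.0 and 29.1 FPKM (-2.02 ± 0.32, adjusted p = 0.0223), and Folr2, a folate receptor gene of resident macrophages, at 11.4 and 11.4 against 3.25, 2.27 and 3.96 FPKM (-1.60 ± 0.33, adjusted p = 0.0425). Arg1, whose enzyme consumes arginine, missed the threshold at 101 and 76.7 against 42.2, 36.2 and 27.4 FPKM (-1.32 ± 0.37, adjusted p = 0.112).

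Further genes of macrophages and monocytes fell outside that list. The coagulation factor XIII gene F13a1 fell from 30.3 and 20.6 to 3.91, 2.42 and 5.20 FPKM (-2.46 ± 0.38, adjusted p = 0.0195), the membrane protein gene Ms4a4a from 58.1 and 41.1 to 10.5, 9.74 and 13.9 FPKM (-2.03 ± 0.26, adjusted p = 0.00774), and Ccl7, which attracts monocytes, from 308 and 194 to 109, 74.9 and 85.1 FPKM (-1.45 ± 0.24, adjusted p = 0.0272). Chil3, Wfdc17, Ccl9, Clec4a2 and Lyve1 also fell. The broad macrophage and monocyte list differed: 1 of 23 genes fell, Ms4a7 (-1.36 ± 0.29, limma, adjusted p = 0.0466), against 0.408% of all genes. In this list 6 genes were above 0 and the median was -0.51. The receptor gene Csf1r overlapped between the groups, and Cd68 was at 90.9 and 85.7 against 93.2, 82.1 and 56.8 FPKM. Summed over 23 genes the list gave 4236 and 3254 against 2822, 2914 and 1904 FPKM, whereas the 11 alternatively activated genes, 1 of them at 0 in all 5 libraries, gave 515 and 407 against 151, 120 and 113 FPKM.

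Neutrophil and red cell genes fell too. S100a8 and S100a9, the 2 subunits of calprotectin, are among the most abundant proteins of neutrophils. S100a8 was at 36.4 and 32.4 against 5.68, 8.13 and 4.37 FPKM (-2.36 ± 0.27, adjusted p = 0.00284), and S100a9 at 18.2 and 18.9 against 2.40, 2.29 and 1.42 FPKM (-2.70 ± 0.31, adjusted p = 0.00286). Of 8 tested neutrophil genes 2 had differences above 0, 1 of them without overlap, and 5 were lower without overlap (14.7% and 19.5% of all genes). S100a8 and S100a9 were the 2 that fell, against 0.408% of all genes, and the list median was -0.71. With JQ1 and anti-PD-L1 they also made up most of the summed neutrophil FPKM given next, and a smaller part of it in the 3-drug libraries. The 15 listed neutrophil genes summed to 90.6 and 81.97 FPKM against 31.99, 33.4 and 21.5 FPKM, and neither of the 2 passed without JQ1 and anti-PD-L1 replicate 1. The beta-globin gene Hbb-b1 was at 24.2 and 13 against 1.82, 1.22 and 0 FPKM (-3.35 ± 0.49, limma, adjusted p = 0.0195). Its near-identical copy Hbb-bt, with which it may share reads, was at 14.4 and 6.87 against 1.15, 0.705 and 0 FPKM (-2.84 ± 0.44, limma, adjusted p = 0.0197). These were the 2 genes that fell of 4 tested in the red cell list, against 0.408% of all genes. Without 3-drug replicate 1 or 3 the list again had 2 genes that passed, and it had none without 3-drug replicate 2 or without JQ1 and anti-PD-L1 replicate 1. The 2 vehicle libraries held the highest Hbb-b1 of all, 116 and 36.5 FPKM, and the JQ1 libraries 0.311 and 1.36 FPKM.

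**Figure D4:**
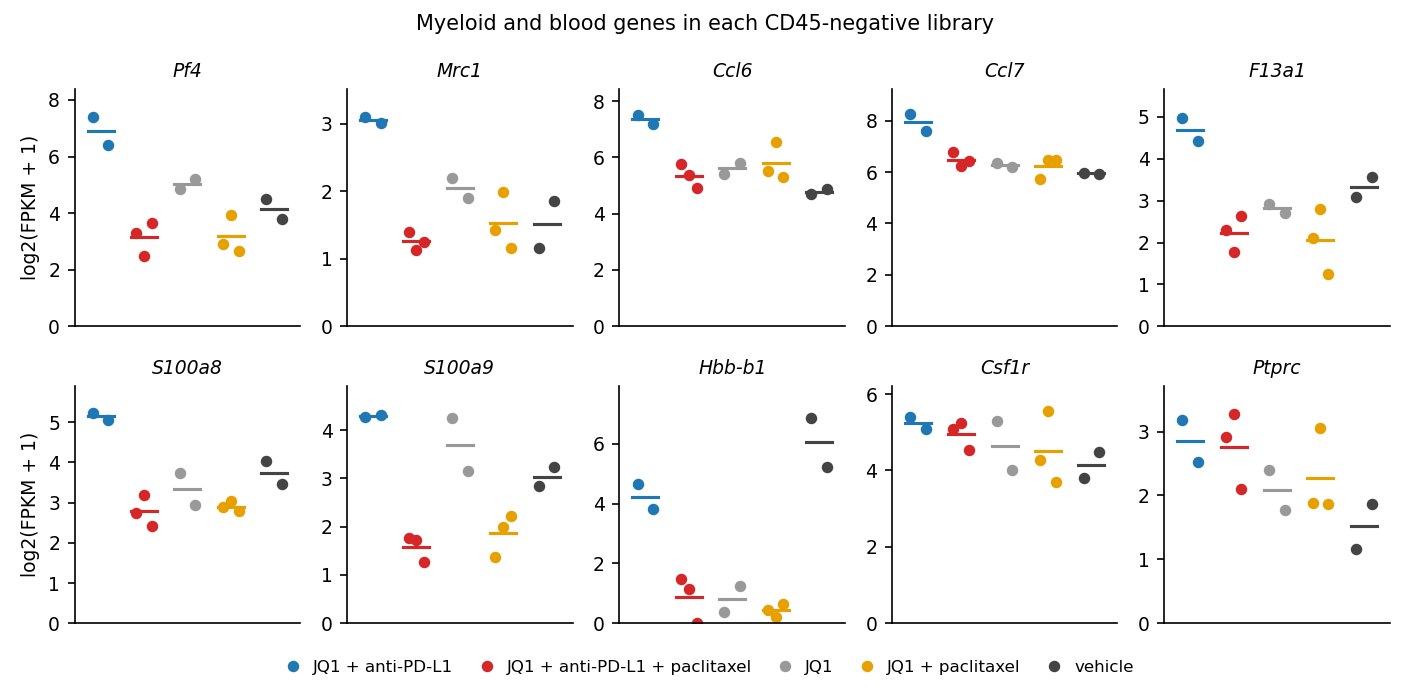
Each point is 1 CD45-negative library, as log2(FPKM + 1), and each bar a group mean, for 8 genes that fell and for Csf1r and Ptprc, which did not pass the test. For Pf4, Mrc1, Ccl6, Ccl7 and F13a1 the 2 blue points of JQ1 and anti-PD-L1 lie above the libraries of all the other groups; for Csf1r and Ptprc the groups overlap.

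The call fixes how a gene's 3-drug and JQ1 and anti-PD-L1 libraries lie to each other, but not where the other 7 libraries lie, and these are given as a description. In 31 of the 44 genes that fell, both JQ1 and anti-PD-L1 libraries were also above all 7, vehicle included. Of all tested genes 3.26% had these 2 libraries above the 10 others. In 5 of the 44 the 3-drug libraries were also below all 7, against 2.84% of all tested genes below the 9 others. Among the 64 genes that rose, the 3-drug libraries were also above all 7 in 28, against 2.46% of all tested genes above the 9 others. The JQ1 and anti-PD-L1 libraries were also below all 7 in 14, against 1.59%. The shares over all tested genes lack the separation of the 2 groups that the call brings, so these counts are no test. Pf4, for example, was at 4.64 to 35.5 FPKM in the 10 other libraries, 12.9 and 21.7 FPKM in vehicle among them. Of the 10 alternatively activated genes none passed without JQ1 and anti-PD-L1 replicate 1 and 1 without its replicate 2; without 3-drug replicates 1, 2 and 3 in turn the number was 4, 1 and 6. Of the 44 genes that fell 28 had a higher mean level in the CD45-positive than in the CD45-negative libraries of these groups, as had 12 of the 64 that rose and 32.8% of all tested genes.

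Genes of cell division lay lower by small amounts. Of 30 genes of G2 phase and mitosis all 30 differences were below 0, 17 without overlap (19.5% of all genes), with a median of -0.36, and 1 passed (0.408% of all genes). This was Ccna2, the gene of cyclin A2, which drives DNA replication and entry into mitosis, at 21.0 and 21.9 against 12.3, 8.52 and 12.2 FPKM (-0.92 ± 0.17, adjusted p = 0.0388). It was also called when paclitaxel was added to JQ1 alone (-1.24, adjusted p = 0.0209), where all 30 genes were again below 0, with a median of -0.59. The 28 DNA replication genes had a median of -0.08 and none passed. The nuclear export receptor gene Xpo1, at 21.0 and 19.2 against 11.5, 11.3 and 11.6 FPKM (-0.76 ± 0.15, adjusted p = 0.0399), and the nuclear pore gene Nup205, at 12.8 and 12.7 against 6.86, 7.60 and 6.75 FPKM (-0.77 ± 0.16, adjusted p = 0.0443), fell with the groups well apart.

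No gene passed in the lists of ribosomal, respiratory, stromal and epithelial genes. Of 88 cytosolic ribosomal protein genes 85 were below 0, 38 of them without overlap against 19.5% of all genes, with a median of -0.31; the median was -0.28 with median-of-ratios scaling and -0.29 with quantile normalization, where 1 ribosomal and 2 respiratory genes fell. Of 90 respiratory chain genes 76 were below 0, with a median of -0.18. Secreted matrix and fibroblast genes had a median of -0.55, 12 of 23 lower without overlap, and the 11 tested endothelial genes one of 0.23, or -0.13 without 3-drug replicate 3. Of 12 tested epithelial genes 11 were above 0, with a median of 0.58; Krt8 was at 341 and 449 against 584, 478 and 688 FPKM, and Krt18 at 21.9 and 40.7 against 50.4, 45.8 and 59.4 FPKM, both apart between the groups.

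The same drug was added to JQ1 alone in 3 other tumours, against 2 with JQ1, which shares no library with the first comparison. Both JQ1 tumours again carry 1 mouse code, so paclitaxel and animal cannot be told apart here either, and with 1 value per code no gene passed. There 23 of 10780 genes passed (0.213%), 9 higher and 14 lower. Of the 64 genes that rose on JQ1 and anti-PD-L1, 59 were above 0 there too, against 47.2% of all genes, with a median of 0.44 where it had been 1.14; of the 44 that fell 37 were below 0, against 52.8% of all genes, with a median of -0.41 where it had been -1.35. Igfbp6, an insulin-like growth factor binding protein gene, rose alike in both, by 1.04 ± 0.17 (adjusted p = 0.0238) and 1.03 ± 0.17 (adjusted p = 0.0313), from 124 and 143 to 288, 267 and 268 FPKM and from 124 and 167 to 280.0, 300.1 and 309 FPKM. Igfbp6, Itpkc, Ccna2 and S100a9 were the 4 genes called in both comparisons. Median differences of the interferon gamma list were 1.28 and 0.94, and those of the class II list were 2.65 and 0.19.

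The stress list gave different calls in the 2 comparisons. On JQ1 alone none of its 26 genes rose and 6 fell, where 9 and 14 of all 10780 genes did. All 6 were genes of amino acid supply or one-carbon metabolism: Mthfd2, Asns, Aldh1l2, Pck2, Shmt2 and Slc7a5. Mthfd2, a mitochondrial folate enzyme gene, was at 24.6 and 28.0 FPKM with JQ1 and at 8.44, 6.44 and 11.8 FPKM with JQ1 and paclitaxel (-1.50 ± 0.22, adjusted p = 0.0213), but at 22.97 and 25.4 against 31.1, 23.9 and 30.3 FPKM when anti-PD-L1 was present. Asns, asparagine synthetase, was at 42.4 and 50.8 against 13.8, 14.97 and 20.3 FPKM (-1.47 ± 0.23, adjusted p = 0.0313), and at 37.8 and 38.7 against 65.2, 42.3 and 40.05 FPKM when it was present. Trib3, by contrast, was at 3.05 and 4.91 against 3.34, 1.79 and 5.27 FPKM on JQ1 alone, with overlap. The difference between the 2 paclitaxel effects was tested for every gene. Only 1 gene passed (0.00928%), Snora21, which met the expression filter only through JQ1 and anti-PD-L1. The adjusted p (limma) was 0.162 for Asns, Mthfd2, Pck2 and Slc7a5, 0.303 for Trib3 and 0.535 for Chac1. So it was not shown that these genes differ between the 2 comparisons. With 2 or 3 tumours per group it was not shown either that the effects are alike. The calls on JQ1 alone vanished without either of the 2 JQ1 libraries and with relative depth as a covariate.

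**Figure D5:**
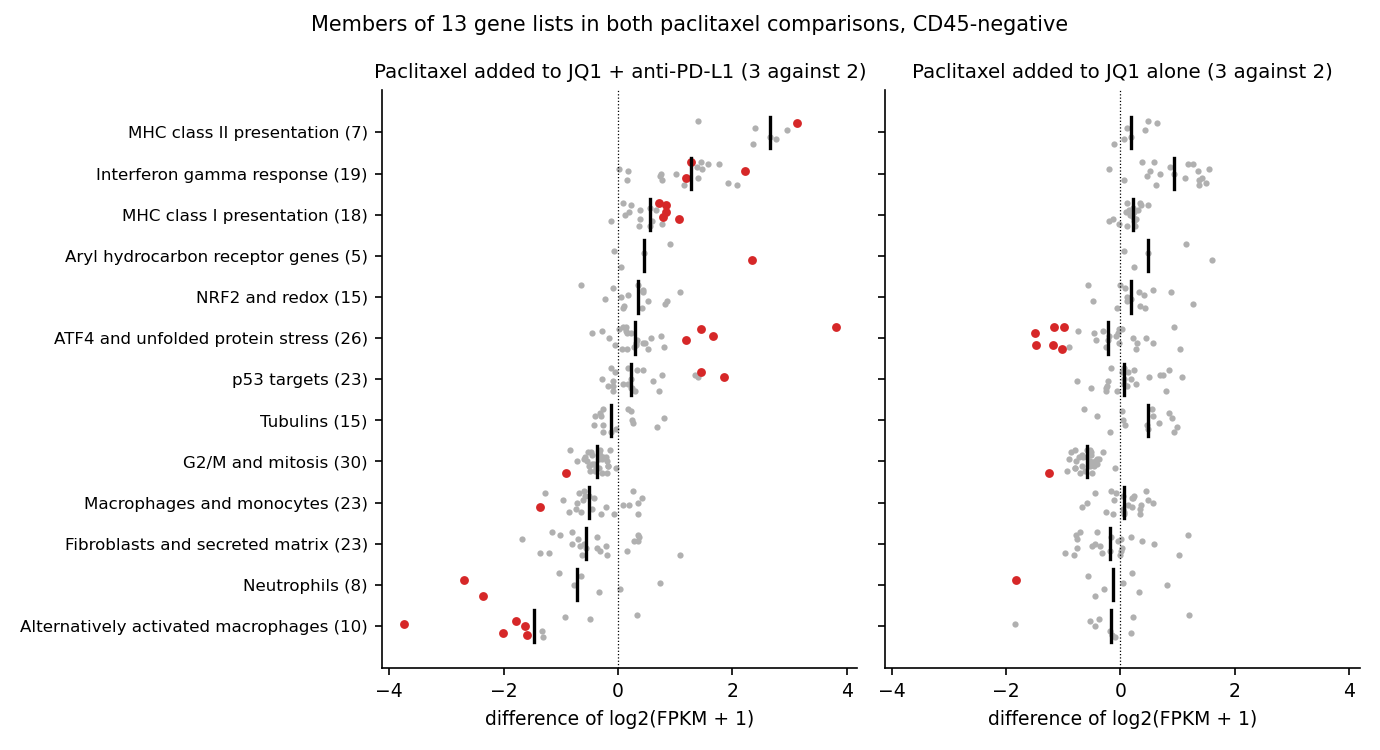
Differences of log2(FPKM + 1) for the tested members of 13 gene lists, their number in brackets, when paclitaxel was added to JQ1 and anti-PD-L1 (left) and to JQ1 alone (right). Each point is 1 gene, red where the adjusted p is under 0.05, and the black bar is the list median; for MHC class II the median is 2.65 on the left and 0.19 on the right.

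In the CD45-positive fraction 2 libraries with all 3 drugs, from 2 of the same 3 tumours, stood against 2 with JQ1 and anti-PD-L1. Only 1 of 10340 genes passed (0.00967%), and 920 had an unadjusted p under 0.05. It was the microRNA gene Mir6236, at 908 and 839 FPKM against 88.7 and 67.9 FPKM (-3.47 ± 0.26, adjusted p = 0.00347), while its CD45-negative difference was -0.52 (adjusted p = 0.434); it was not called without JQ1 and anti-PD-L1 replicate 1 or 2. Of the genes that rose in the CD45-negative cells 41 of 51 tested here were above 0, against 59.2% of all genes tested in both, and of those that fell 31 of 36 were below 0, against 40.8%. Both fractions come from the same tumours, so this is no independent repeat. Pf4 was at 1074 and 1019 FPKM against 126 and 313 FPKM in the leukocytes, Ccl7 at 1559 and 1261 against 757 and 731 FPKM, and Cd74 at 759 and 632 against 2931 and 1431 FPKM, each without overlap and none past the test. Chac1 was at 0.157 and 0 against 5.54 and 0.116 FPKM, with 1 of the 4 libraries high. Interferon gamma genes had a median of 1.42 and alternatively activated macrophage genes one of -1.11 in that fraction.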

How the data were processed

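The authors deposited 1 table per fraction, with gene values for 24353 symbols; alignment used STAR 2.5.1b and mm9, per the submitters' processing notes, and the tool that made the gene values is not given in the sources used here. Those deposited values are taken as FPKM from their decimals and column sums, although the file labels speak of counts. Libraries came from low-input SMARTer kits, per the labels' protocols. All but 77 of the 24353 symbols matched a mouse gene name. Absolute depth is unknown; relative depth was read from the steps of low values, since 1 read is worth a fixed amount per gene and library.

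From these, log2(FPKM + 1) was fitted with limma 3.58.1 (R 4.3.3) in 1 model with a mean-variance trend over the 5 groups and 12 CD45-negative libraries, and in another over the 10 CD45-positive ones. All p-values are two-sided; a gene was called at 0.05 after adjustment by Benjamini-Hochberg over the 10780 or 10340 genes tested. FPKM are not counts, so no count model was used, and fold changes of low genes are understated. The fit was tested on simulated data. Nothing shows that replicate tumours came from separate animals beyond their codes. Python 3.11.15 with pandas 2.3.3 made the tables.

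The comparison, its members and the 48 gene lists were chosen with earlier results of these data known. Named genes were the 12 highest and 12 lowest differences among called genes with a mean log2 level of at least 2 and no overlap, clone identifiers passed over; from every list, at most 3 members that passed or, where none did, the 2 most abundant; the 5 highest and lowest of the difference between the paclitaxel effects; and Cdkn1a, Myc, Hexim1, Cd274, Ptprc, Tubb5 and Tuba1b. Not all 99 such genes are described, and the other genes named were chosen after their values were seen. Alternatives were a pseudocount of 0.1, no filter, a mean of at least 5 FPKM, only the 2 groups, no trend, a robust fit, other scalings, depth as covariate, mouse code as unit or random effect, and leaving out each library. Promoter sequences are RefSeq's in GRCm38.p6; no mm9 coordinates were used.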

Additional observations from a re-analysis of the deposited data

Results flagged for a closer look

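Snora21, the gene of a small nucleolar RNA that guides the chemical modification of ribosomal RNA, was the 1 gene called for a difference between the paclitaxel effects with and without anti-PD-L1 (limma, adjusted p = 5.57e-05). It was at 8.99 and 13.3 FPKM in the JQ1 and anti-PD-L1 libraries and is listed at 0 in the other 10 CD45-negative libraries, so no fold is given. It met the expression filter only through the group where it is high, so this p-value supports nothing about paclitaxel. Its mean level lies under the level set for named genes, and it was named after its values were seen. In the fits with a pseudocount of 0.1 and with a mean of at least 5 FPKM the difference of the effects passed in no gene.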

How the results depend on the processing

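Counts of genes past the threshold moved by more than 1.5 times under several alternatives. For paclitaxel on JQ1 and anti-PD-L1, with 108 genes as reported, the count was 59 with a pseudocount of 0.1, 33 without the filter on low values, 65 without a trend, 1 with 1 value per mouse code and 223 with mouse code as a random effect, and it ranged from 1 to 235 when 1 library was left out. With median-of-ratios scaling 69.4% of called genes were higher, against 59.3%, and the no-filter fit called 10 higher and 23 lower. For paclitaxel on JQ1 alone, with 23, it was 8 without the filter, 36 with median-of-ratios scaling, 45 with quantile normalization, 0 with relative depth as a covariate, 0 with 1 value per mouse code and 57 with mouse code as a random effect, and 0 to 45 with 1 library left out. For the difference of the effects, with 1, it was 0 with a pseudocount of 0.1 and with a mean of at least 5 FPKM, 2 without the filter, with a robust fit, with either scaling and with mouse code as a random effect, 7 with relative depth as a covariate, and 1 to 4 with 1 library left out. In the CD45-positive fraction, with 1, it was 2 with a pseudocount of 0.1, 0 without the filter and 0 to 2 with 1 library left out. In the fit with mouse code as a random effect, the estimated correlation within codes was -0.0903. As it lay below 0, the higher counts of that fit do not show that calls hold between codes. The cause of the changes in counts was not tested.

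No called gene's difference changed sign, but most of the alternatives could not reverse one, as the called genes did not overlap between the groups. Among genes described that did not pass, the sign depended on the library left out: the difference ranged from -0.203 to 0.096 for Aldh1l2 (0.002 with quantile normalization), from -0.416 to 0.242 for Ptprc, from -0.126 to 0.423 for Socs1 and from -0.003 to 0.238 for B2m. Small list medians changed sign: type I interferon genes from -0.06 to 0.0058 with quantile normalization, 0.05 without 3-drug replicate 3 and 0.08 without JQ1 and anti-PD-L1 replicate 1, tubulins from -0.12 to 0.05 without 3-drug replicate 2, and endothelial genes from 0.23 to -0.13 without 3-drug replicate 3. Over the 95 genes described and 23 alternatives, where tested, a gene kept its sign and its side of the threshold 1589 times, lost its call 529 times and gained one 47 times. No paired analysis was possible because the compared groups carry different mouse codes and share no replicate number that ties their tumours. With 3 and 2 tumours the spread is poorly known, and FPKM do not give the counting error of low genes.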

Other observations

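Several further genes rose. The osteocalcin genes Bglap and Bglap2 were at 0.469 and 0.259 against 2.04, 1.68 and 2.10 FPKM (1.11 ± 0.23, adjusted p = 0.0443) and at 0.287 and 0.397 against 1.91, 3.16 and 2.95 FPKM (1.44 ± 0.23, adjusted p = 0.0238); they lie close to each other and may share reads. Ecm1, an extracellular matrix protein gene, rose from 173 and 192 to 323, 301 and 315 FPKM (0.78 ± 0.14, adjusted p = 0.0388), while vehicle stood higher still at 428 and 434 FPKM. The AP-1 gene Fosl1 rose from 113 and 131 to 228, 231 and 217 FPKM (0.88 ± 0.17, limma, adjusted p = 0.0399). The extracellular superoxide dismutase gene Sod3 rose from 23.2 and 27.9 to 46.6, 86.8 and 63.9 FPKM (1.29 ± 0.25, limma, adjusted p = 0.0402). Vehicle stood at 194 and 238 FPKM for Fosl1 and at 33.0 and 27.2 FPKM for Sod3.

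The smooth muscle actin gene Acta2 was at 173 and 229 against 130, 79.2 and 114 FPKM, apart but short of the threshold (-0.91 ± 0.22, adjusted p = 0.0693), and fell with paclitaxel on JQ1 alone (-1.40, adjusted p = 0.0313), from 171 and 201 to 89.0, 60.8 and 62.7 FPKM. The chemokine gene Cxcl14 fell from 35.7 and 29.2 to 15.9, 14.3 and 16.3 FPKM (-1.01 ± 0.21, adjusted p = 0.0443). The placental hormone gene Prl2c2 varied widely within groups: its JQ1 and anti-PD-L1 libraries were at 2.30 and 29.9 FPKM, the 3-drug libraries at 86.8, 31.2 and 68.6 FPKM (2.53 ± 0.71, adjusted p = 0.115), the vehicle libraries at 60.4 and 34.8 FPKM and all JQ1 and JQ1 with paclitaxel libraries at or under 3.29 FPKM.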
